A study of Mus musculus with 6 samples.

Results

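Angptl4, Cpt2 and Fabp3 are known targets of the peroxisome proliferator-activated receptors (PPARs) that act in the handling of fatty acids, and their array signal was described in the aorta of ApoE(−/−) mice on 2 diets. The genes were taken by symbol from the study's supplementary list of differentially expressed mRNAs, which pairs each with 1 probe. They are 3 of the 278 gene symbols that this list names, and their probes are 3 of 91188 on each array. The list was selected on the same diet contrast and the same arrays, so the diet differences of these genes are given as a description, with no test. All mice were male homozygous apoE(-/-) animals on a C57BL/6 background, so the controls carried the deletion too. The normal diet group (3 mice) received normal chow, and the high-fat diet group (3 mice) received a diet with 20% fat and 2.5% cholesterol. Feeding lasted 8 weeks, after which total RNA of each aorta was hybridised to 1 array labelled with a single dye. These mice lack apolipoprotein E, a ligand for the clearance of lipoprotein remnants, and develop atherosclerosis on normal chow, so the normal diet group is not a disease-free control.

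PPARs are nuclear receptors that bind fatty acids and their derivatives. As heterodimers with the retinoid X receptor they bind response elements and switch on genes for the uptake, storage and oxidation of fatty acids. PPARα and PPARδ are known mainly for oxidation in heart, muscle and liver, and PPARγ for lipid storage in adipocytes and lipid-loaded macrophages. The 3 genes act at successive places in this handling. ANGPTL4 is a secreted protein that inhibits lipoprotein lipase, the enzyme that frees fatty acids from circulating triglyceride. FABP3 is the fatty acid carrier in the cytosol of heart and skeletal muscle. CPT2 is the carnitine palmitoyltransferase of the inner mitochondrial membrane, which remakes acyl-CoA in the matrix for oxidation.

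Each gene was read by 1 probe of 60 bases with 1 spot on each array, so each value below rests on 1 spot. The last 30 bases of each probe are shown because they tell which transcript end was measured and show the overlap of the Fabp3 probe with a second probe on the array. Capitals mark AATAAA, the sequence of the polyadenylation signal, where it occurs.
Angptl4, probe A_51_P338443: aggtgctaactgtggttcccaggcacagct
Cpt2, probe A_55_P2033650: tgtttaaatagaAATAAAcccagtgttgct
Fabp3, probe A_55_P2033780: cAATAAAgcagaaccaaggccacccaaaaa
Second probe, A_55_P1974367: ctccaaggtcAATAAAgcagaaccaaggcc
AATAAA began at base 43 of the Cpt2 probe and at base 32 of the Fabp3 probe, counted from the 5′ end, and was not in the Angptl4 probe. It occurred in 10.9% of all probes on the array. The second probe is not in the study's list and is not named in the tables used here. Its bases 10 to 60 are the same as bases 1 to 51 of the Fabp3 probe. No other probe shared a run of 20 or more bases with any of the 3 probes, and none did so on the opposite strand.

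RefSeq promoter windows of 300 bases around the annotated start (GRCm38.p6) were found for Cpt2 at chr4:107923540-107923839 on the minus strand and for Fabp3 at chr4:130308488-130308787 on the plus strand. They had a GC content of 57.3% for Cpt2 and 65% for Fabp3, against a median of 52.7% over all 32851 windows. Neither window held an exact match, on either strand, to the direct repeat of the PPAR response element (DR1), to a looser form of it with the fourth base of each repeat unit left free, to the single unit AGGTCA that the full repeat contains, or to TATAAA. These letters were in 0.0396%, 0.381%, 16.3% and 13.6% of all windows. The result says only that the letters were not in these windows.

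The arrays lay on 2 slides. Slide 1 held replicates 1 and 3 of the normal diet group, while its replicate 2 shared slide 2 with all 3 high-fat diet arrays. Between 62.6% and 64.4% of probes were detected on slide 1 and between 72.4% and 76.0% on slide 2, and the negative control spots had a net signal of 31.6 to 32.2 on slide 1 and 13.1 to 13.8 on slide 2. Diet and slide can therefore be separated only through normal diet replicate 2, and each difference is given against all normal diet arrays and against that array. The filter on detection kept 64467 probes (70.7%), among them all 3 gene probes and the second probe. These 4 probes were well above background on 6 of 6 arrays, with no spot marked as an outlier or saturated. Probe names for smooth muscle, endothelium, fibroblasts, adipocytes and cardiac muscle were not in the tables used here, so the label aorta was not checked against these cells. In RNA of a whole aorta, fewer cells of a type and less RNA per cell cannot be told apart.

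**Figure D1:**
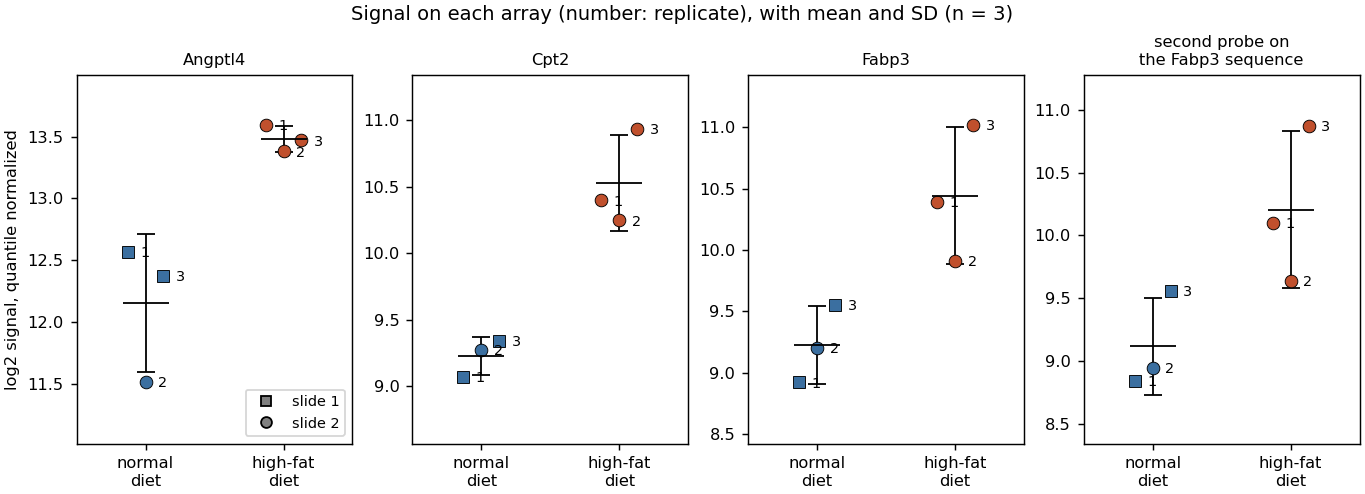
Quantile-normalized log2 signal of each probe on each array (y axis) by diet (x axis), with squares for slide 1, circles for slide 2, the replicate number beside each point, and bars for the mean and SD (n = 3). All 3 high-fat diet arrays lie above all 3 normal diet arrays in each panel, Angptl4 has its lowest point at 11.51 on normal diet replicate 2, and the other panels have their highest point on high-fat diet replicate 3.

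Angptl4, the secreted lipase inhibitor, was higher in the high-fat diet group and nearly level among its 3 mice. The deposited intensity was 5420, 3112 and 4400 in replicates 1 to 3 of the normal diet group. In replicates 1 to 3 of the high-fat diet group it was 12166, 13106 and 11594. The ratio of the group means of this unnormalized intensity was 2.85. On the quantile-normalized log2 scale, used from here on, the signal was 12.57, 11.51 and 12.37 in the normal diet group and 13.60, 13.38 and 13.47 in the high-fat diet group. The groups did not overlap, and the lowest high-fat diet array lay 0.82 above the highest normal diet array. The means were 12.15 ± 0.56 and 13.48 ± 0.11 (SD, n = 3 each), a log2 difference of 1.33 with a limma standard error of 0.29, or 2.52-fold.

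The size of the Angptl4 difference depended on which normal diet array stood for the baseline. Normal diet replicate 2 lay 0.96 below the mean of normal diet replicates 1 and 3 on the log2 scale, so that those arrays averaged 1.94-fold more signal. Against normal diet replicate 2, the array of the shared slide, the 3 high-fat diet arrays were higher by 2.08, 1.87 and 1.96, a mean of 1.97 or 3.92-fold. Against normal diet replicates 1 and 3 the same arrays were higher by between 0.82 and 1.22, a mean of 1.01 or 2.02-fold. With slide as a block the fit gave the same 1.97, since its baseline is then normal diet replicate 2 alone. Its standard error of 0.20 leaves out how far that array lay from the other normal diet arrays. The direction was the same on both baselines, and the size differed by 1.94-fold between them. Normal diet replicate 2 was the lowest of the normal diet arrays for 41.8% of kept probes, but for only 13.5% of the 1374 that were higher by both criteria.

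Cpt2, the mitochondrial acyltransferase, was the gene with the least spread on the normal diet. In the same order of arrays, its intensity was 497, 651 and 558 in the normal diet group and 1269, 1519 and 2031 in the high-fat diet group, a ratio of group means of 2.82. The log2 signal was 9.07, 9.27 and 9.34 in the normal diet group and 10.40, 10.25 and 10.94 in the high-fat diet group. The groups did not overlap, with a gap of 0.91, and the third high-fat diet replicate was the highest array. The means were 9.23 ± 0.14 and 10.53 ± 0.36 (SD, n = 3 each), which differed by 1.30 with a standard error of 0.22, or 2.46-fold. The Cpt2 difference hardly moved with the baseline. It was 1.25 against normal diet replicate 2 (range over the 3 high-fat diet arrays 0.98 to 1.66) and 1.32 against normal diet replicates 1 and 3, and 1.25 with a standard error of 0.31 with slide as a block.

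Fabp3, the cytosolic fatty acid carrier, was higher in the high-fat diet group with the widest spread among its mice. Its intensity was 449, 619 and 644 in the normal diet group and 1263, 1198 and 2160 in the high-fat diet group, a ratio of group means of 2.70. The log2 signal was 8.92, 9.20 and 9.55 in the normal diet group and 10.39, 9.91 and 11.02 in the high-fat diet group. The groups did not overlap, but the gap was 0.36, smaller than the range of 1.11 within the high-fat diet group. The means were 9.22 ± 0.32 and 10.44 ± 0.56 (SD, n = 3 each), which differed by 1.22 with a standard error of 0.31, or 2.32-fold. The Fabp3 difference was 1.24 against normal diet replicate 2 (range 0.71 to 1.82) and 1.20 against normal diet replicates 1 and 3, and 1.24 with a standard error of 0.45 with slide as a block. It was the one of the 3 genes whose difference fell under 2-fold when an array was left out, at 0.93 without high-fat diet replicate 3.

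The second probe read the Fabp3 sequence in a separate spot on each array, and it differed from the listed Fabp3 probe by little beside the spread between mice. Its log2 signal was 8.84, 8.95 and 9.56 in the normal diet group and 10.10, 9.64 and 10.88 in the high-fat diet group. The log2 value of the listed probe minus that of the second probe ran from -0.01 to 0.29 over the 6 arrays, with a mean of 0.17 and an SD of 0.12, and the probes had a Pearson r of 0.988 across them (n = 6, arrays and RNA shared). The order of the arrays within each diet was the same for both probes, so the spread of Fabp3 among the high-fat diet mice was read alike by separate spots. The diet difference of the second probe was 1.09 with a standard error of 0.35, or 2.13-fold, with a gap of 0.08 between the diets. The second probe, which is not in the study's list, met both of the study's criteria in the limma fit but not with the methods' t-test, and the listed Fabp3 probe met them with either. Against all normal diet arrays Fabp3 had the smallest difference of the 3 genes. Against normal diet replicates 1 and 3 Angptl4 had the smallest, at 1.01, with 1.20 for Fabp3 and 1.32 for Cpt2. The scanner's error model put the error of each of these signals at about 10%, or 0.14 on the log2 scale. Of the genes' SDs within a diet, that of Angptl4 on the high-fat diet was below this error and that of Cpt2 on the normal diet was close to it.

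**Figure D2:**
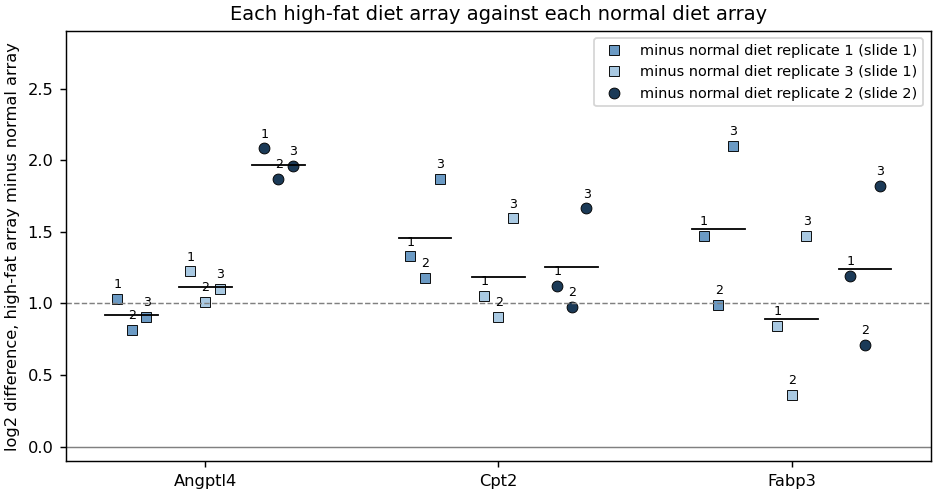
Log2 difference of each high-fat diet array (number above the point) minus each normal diet array (y axis), for Angptl4, Cpt2 and Fabp3 (x axis), with a line for the mean of the 3 points, a dashed line at 1 (2-fold), squares for a normal diet array on slide 1 and circles for the one on slide 2. All points are above 0, and for Angptl4 all points against normal diet replicate 2 are at 1.87 or more while those against replicates 1 and 3 are at 1.22 or less.

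By the study's criteria in the limma fit (a difference of 2-fold or more with an unadjusted p no larger than 0.05), all 3 genes were higher in the high-fat diet group, where 2.13% of kept probes were and 2.96% met the criteria in either direction. The genes were selected by those criteria, so nothing is read from this count. A high-fat diet group entirely above the normal diet group was found for all 3 genes and for 8.87% of kept probes, and 19.3% had no overlap in either direction. With slide as a block all 3 again met both criteria, as 1.64% of kept probes did, and 0.434% of kept probes did so in both fits. All 3 high-fat diet arrays were at least 2-fold above normal diet replicate 2 for Angptl4, as for 0.864% of kept probes, but not for Cpt2 or Fabp3, in each of which high-fat diet replicate 2 fell short. A larger difference than that of Angptl4 was seen for 1096 kept probes, 218 with slide as a block. For Cpt2 these numbers were 1170 and 756, and for Fabp3 they were 1405 and 787. After Benjamini-Hochberg adjustment in limma an adjusted p under 0.05 was reached by 1 of 64467 kept probes (0.00155%), which was not a probe of these genes, and 8669 had an unadjusted p under 0.05.

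Within the diets Cpt2 and Fabp3 varied together and Angptl4 did not follow them. With the mean of each diet taken off, Cpt2 and Fabp3 had a Pearson r of 0.96 over the 6 arrays. The r was -0.14 between Angptl4 and Cpt2 and 0.00 between Angptl4 and Fabp3. In the high-fat diet group Cpt2 and Fabp3 both ran from replicate 3 to replicate 1 to replicate 2 in falling order, whereas Angptl4 ran from replicate 1 to replicate 3 to replicate 2 over a range of only 0.21. High-fat diet replicate 3 exceeded the mean of replicates 1 and 2 by 0.61 for Cpt2 (1.53-fold) and by 0.87 for Fabp3 (1.83-fold). For Angptl4 this difference was -0.02. In the normal diet group Cpt2 and Fabp3 ran from replicate 3 to replicate 2 to replicate 1, and Angptl4 had its lowest value on replicate 2. The order of Cpt2 depended on the scaling. With normexp its normal diet replicate 2 (9.39) lay above replicate 3 (9.28). In the unnormalized intensity its high-fat diet replicate 2 (1519) lay above replicate 1 (1269). These correlations rest on 6 arrays, are a description of genes selected on the diet difference and its spread within the diets, and share the arrays, the slides and the RNA of each mouse. The order 3, 1, 2 was found in the high-fat diet group for 13.1% of kept probes, and for 14.0% of the 1374 kept probes higher by both criteria.

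Among the other genes of fatty acid oxidation and PPAR signalling, 96 symbols were looked for and 3 had a named probe. These were Acad11, an acyl-CoA dehydrogenase, Etfdh, which passes electrons from the acyl-CoA dehydrogenases to the respiratory chain, and Slc25a42, the mitochondrial carrier for coenzyme A. They were named through the same list as the 3 genes, so that all 3 were higher by both criteria, beside 2.13% of kept probes, is not independent evidence. With normexp background correction 2 of the 3 were higher by both criteria, beside 0.315% of kept probes, and Etfdh, at 0.98, fell just under 2-fold. Their median difference was 1.21. The 0.01 over all kept probes is given for scale only, because selection at 2-fold or more on these arrays fixed the size in advance. Lipoprotein lipase, CD36, CPT1 and the receptors themselves had no named probe and were not analysed here.

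Etfdh had the values most like those of Fabp3. Its log2 signal was 10.43, 10.54 and 10.88 in the normal diet group and 11.58, 11.30 and 12.09 in the high-fat diet group, a difference of 1.04 with a standard error of 0.25. Slc25a42 was 7.97, 8.09 and 8.91 in the normal diet group and 9.62, 9.31 and 10.48 in the high-fat diet group, a difference of 1.48 with a standard error of 0.37. Both followed the order of arrays seen for Fabp3 in each diet. With the diet means taken off, r with Fabp3 was 0.99 for Etfdh and 0.95 for Slc25a42 (n = 6). The corresponding r with Angptl4 was 0.10 for Etfdh and 0.17 for Slc25a42.

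Acad11 shared features of both patterns. Its log2 signal was 11.16, 10.51 and 11.58 in the normal diet group and 12.24, 11.93 and 12.72 in the high-fat diet group, a difference of 1.21 with a standard error of 0.32. Like Angptl4, Acad11 was lowest on normal diet replicate 2, by 0.86 below the mean of normal diet replicates 1 and 3. Its difference was 1.79 with slide as a block and 0.93, or 1.90-fold, against normal diet replicates 1 and 3. Like Fabp3, it was highest on high-fat diet replicate 3 among the high-fat diet arrays. With the diet means taken off, r was 0.70 with Angptl4 and 0.69 with Fabp3.

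**Figure D3:**
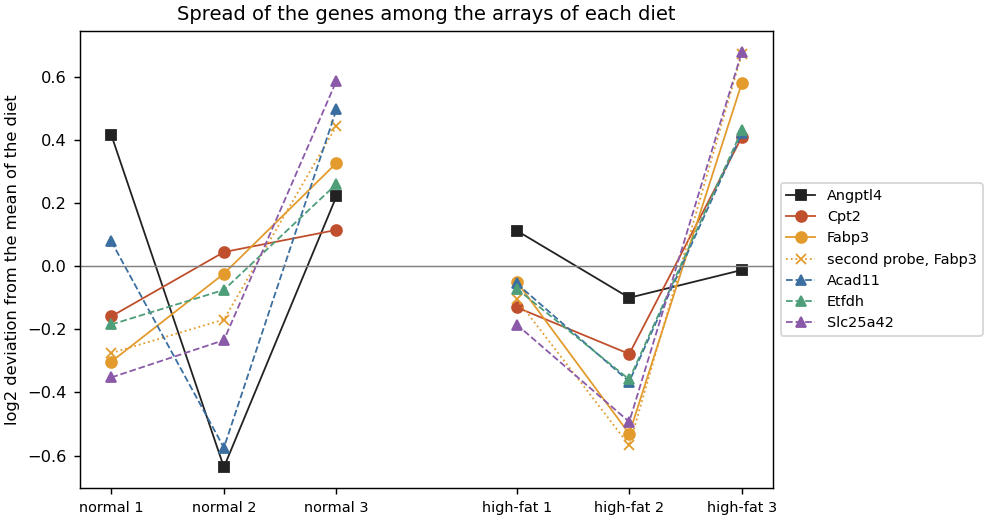
Log2 deviation of each gene from its mean in the same diet (y axis) on each of the 6 arrays (x axis), with solid lines for Angptl4, Cpt2 and Fabp3, a dotted line for the second probe and dashed lines for Acad11, Etfdh and Slc25a42. Fabp3 and Etfdh run together on all 6 arrays, and Angptl4 drops to -0.64 on normal diet replicate 2 and stays within 0.11 of its mean on the high-fat diet arrays.

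Of the 284 named probes, those most like Angptl4 over the 6 arrays were Cdkn2c, a cell cycle inhibitor, with an r of 0.974, Vcam1, the vascular cell adhesion molecule, with 0.964, and Nrp2, a neuropilin, with 0.962. With the diet means taken off these were 0.896, 0.807 and 0.811. Those most like Cpt2 were Pde7b, a phosphodiesterase, with 0.988, Kcnk4, a potassium channel, with 0.987, and Chchd10, a mitochondrial protein, with 0.983. With the diet means taken off these were 0.892, 0.951 and 0.929. Those most like Fabp3 were Etfdh with 0.996, Kcnk4 with 0.989 and Slc25a42 with 0.987. With the diet means taken off these were 0.992, 0.974 and 0.952. The potassium channel Kcnk4 thus followed Fabp3 within the diets more closely than Slc25a42 did, so this spread was not particular to fatty acid genes. All 284 were named for a diet difference, which raises r between probes that differ in the same direction.

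The wider metabolic genes of the study's list are counted here with the same limit, since each had been selected as higher or lower on these arrays. Of 12 mitochondrial genes, 11 were higher by both criteria and 1 was lower, Slc25a1, the mitochondrial citrate carrier, at -1.21. Of kept probes, 2.13% were higher and 0.83% lower. With slide as a block 5 were higher (1.64% of kept probes) and 1 was lower. With normexp background correction 3 were higher (0.315% of kept probes) and 1 was lower. In the normal diet group 3 of the 12 probes stood well above background on 0 arrays (Gatm, Slc25a5 and Nme4, all counted among the higher). High-fat diet replicate 3 was the highest high-fat diet array for 9 of the 12, beside 31.2% of kept probes. Of 12 probes for 11 other lipid genes, 11 were higher and 1 was lower, Lipf, the gastric lipase, at -1.49, beside 2.13% of kept probes higher. With slide as a block 7 were higher (1.64% of kept probes) and 1 was lower, and with normexp 3 were higher (0.315% of kept probes), both Pla2g7 probes and Apoc1, and 1 was lower. Pex14, counted among the higher, stood well above background on 0 arrays of the normal diet group. Here replicate 3 was the highest for 7 of the 12 probes. Pla2g7, the phospholipase that hydrolyses platelet-activating factor, was higher by 1.22 and 1.19 on its 2 probes, and by 1.11 and 1.07 with normexp. Nceh1, a cholesteryl ester hydrolase of macrophages, was higher by 1.24, but by 0.50 with normexp, under 2-fold.

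Markers of other cell types could be read only where the study's list names them, so each marker given here was selected for a diet difference and its values are a description. Of 10 macrophage markers 4 had a named probe, and these were higher (2.13% of kept probes were higher by both criteria), Cd68 by 2.11, Clec7a by 2.12 and Acp5 by 1.02, with no size given for Cd180, which stood well above background in the high-fat diet group only. With slide as a block Cd68, Clec7a and Acp5 were higher by 2.87, 3.38 and 1.30, and with normexp by 1.15, 1.16 and 0.97. The summed signal of the 4 was 609 to 1055 on the normal diet arrays and 1624 to 1899 on the high-fat diet arrays. Most of this sum came from Acp5, the brightest of the 4 and the one with the smallest difference. Among the normal diet arrays Cd68, Clec7a and Acp5 were lowest on replicate 2, as Angptl4 and 41.8% of kept probes were. The skeletal muscle and mast cell markers named below were lowest there too, so this is not particular to macrophage markers. None of the 4 macrophage markers was highest on high-fat diet replicate 3, where Cpt2 and Fabp3 were. Of 11 skeletal muscle markers 3 had a named probe, and these were lower, Mylk2 at -1.27, Tmod4 at -1.13 and Myom1 at -1.04 (0.83% of kept probes were lower by both criteria), with summed signals of 3308 to 4652 and 1455 to 2377. With slide as a block 0 of these 3 met both criteria, at -0.69, -0.76 and -0.96. All 3 had their lowest value on high-fat diet replicate 3, the array with the highest Fabp3 signal. Of 5 T cell markers Icos was named, with a signal of 5.14 to 11.2 and 12.7 to 16.4. Icos was well above background on 1 of 3 normal diet arrays, and its difference of 1.07 was 0.40 with slide as a block and 0.14 with normexp. Of 4 mast cell markers Cma1 was named, with a signal of 16.3 to 37.3 and 46.1 to 80.9. Its difference of 1.25 was 1.93 with slide as a block and 0.51 with normexp. White and brown adipocyte and cardiac markers, whose cells are rich in these proteins, had no named probe, and the part of any cell type in the differences of the 3 genes was not tested.

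The differences of the 3 genes stayed above 0 in 14 alternative fits. With 1 array left out, or slide as a block, this was fixed in advance, since the diets did not overlap. The replicate block, the methods' t-test and a fit with an intensity trend give the reported difference by construction. The median of the spots is the same as the mean where a probe has 1 spot. The counts over the 14 therefore say less than their number. Angptl4 ran from 1.01 to 1.97 over 14 alternatives and Cpt2 from 1.09 to 1.44, both at least 2-fold in all 14. Fabp3 ran from 0.93 to 1.48 and was at least 2-fold in 13 of 14. The second probe on the Fabp3 sequence ran from 0.75 to 1.37, was at least 2-fold in 12 of 14 and met both criteria in 11. Correction of the background with normexp left 0.315% of kept probes higher by both criteria, and all 3 genes were among them, with differences of 1.27, 1.31 and 1.22. The offset of 50 in this correction shrinks the differences of dim probes and hardly moves those of bright ones. The 3 genes were bright and selected at 2-fold or more, so their place among these probes is not a separate test. In every fit with 1 array left out both criteria were met by Angptl4 and Cpt2, as by 0.49% of kept probes, and not by Fabp3.

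**Figure D4:**
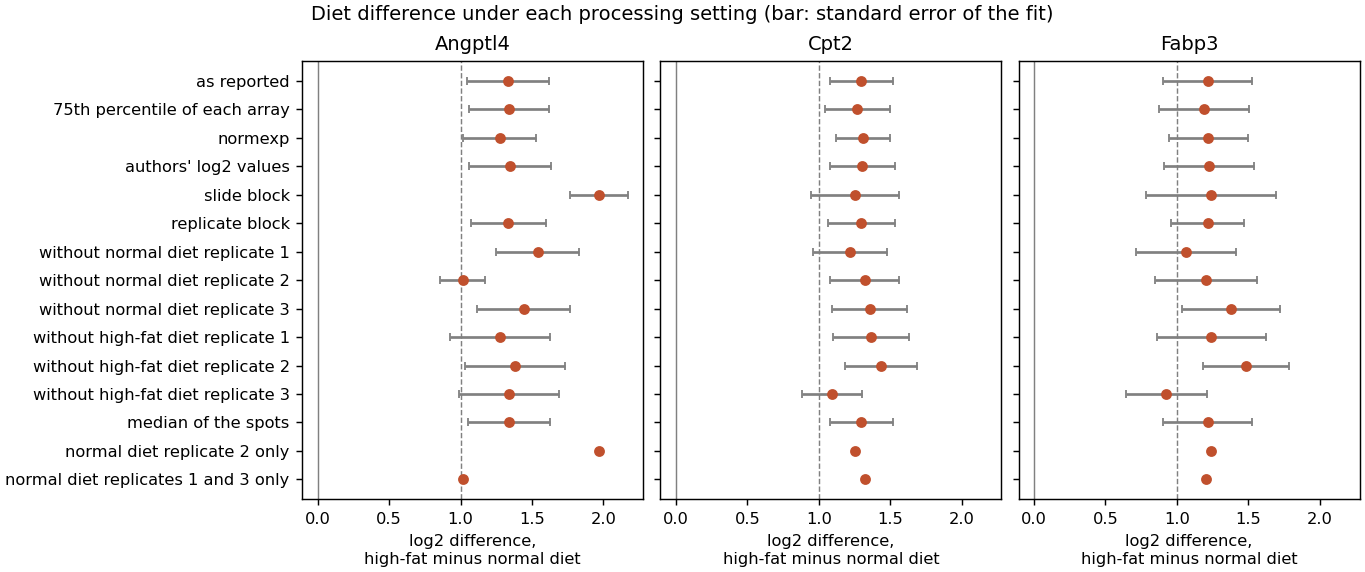
Log2 difference, high-fat diet minus normal diet (x axis), of Angptl4, Cpt2 and Fabp3 under each processing setting (y axis), with bars for the standard error of the fit where there was one and a dashed line at 1 (2-fold). Angptl4 moves between 1.01 and 1.97 with the normal diet arrays used, and Fabp3 falls to 0.93 without high-fat diet replicate 3.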

How the data were processed

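The authors deposited the output of Agilent Feature Extraction (10.7.1.1 per the submitters' processing notes) for each array, with a background-subtracted intensity and flags for each spot. A table of log2 values was deposited too, quantile normalized in GeneSpring per the study's methods. Its columns all had a median of 4.98, its r with the log2 scanner intensity was 0.998 to 1.00, and its values for the 3 genes lay within 0.03 of those used here. Its scale, centre and direction were thus those of quantile-normalized log2 signal. Columns of the study's lists that hold its own comparisons (fold changes, p-values) were not used; probe and symbol were.

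Here outlier spots were left out, spots of a probe were averaged, a floor of 1 was set, and log2 intensities were quantile normalized. Probes detected (at least 0.5 of spots) on all 3 arrays of a diet were kept. Differences, high-fat minus normal diet, came from limma 3.58.1 (R 4.3.3; lmFit, eBayes, 1 fit over all probes, two-sided), which was tested on simulated data; tables used Python 3.11.15, numpy 2.4.6 and pandas 2.3.3. Precision is limited by the number of arrays. Labels give 3 mice per diet. With 1 spot per probe, a planned comparison of spots within an array gave no value, and the scanner's error model stands in. All 357 probes of the study's mRNA list were on the array, 284 had a symbol, and 247 of 278 symbols were in RefSeq.

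The genes and lists were chosen with earlier results of these data known. Named are the 3 genes, members of the pathway, metabolic and marker lists with a probe, and the 3 named probes with the highest r to each gene.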

Additional observations from a re-analysis of the deposited data

How the results depend on the processing

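The limits are few arrays, 1 spot per probe, a normal diet baseline that shares a slide with the high-fat diet group through 1 array only, and names for 284 probes chosen on this contrast. Slide 1 has the higher background, and the signals of the 3 genes are at least 20.2 times the local background. The Angptl4 difference was 1.97 with slide as a block and 1.97 against normal diet replicate 2 alone, since these use the same baseline. It was between 1.01 and 1.54 in the 12 other alternatives. With 1 array left out Angptl4 ran from 1.01 (without normal diet replicate 2) to 1.54, Cpt2 from 1.09 to 1.44 and Fabp3 from 0.93 to 1.48, the extremes of both falling without high-fat diet replicates 3 and 2.

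The number of kept probes that met both criteria was 1909. It was 319 with normexp, 986 among probes detected on all 6 arrays (fewer probes tested) and 688 with the methods' t-test, and it ran from 1137 without normal diet replicate 1 to 5877 without normal diet replicate 2. The cause was not tested. Of the 3 other fatty acid genes, between 1 and 3 met both criteria with 1 array left out, 1 (Slc25a42) without normal diet replicate 2. The r between Angptl4 and Cpt2 was 0.83 over the arrays and -0.14 with the diet means taken off, and that between Angptl4 and Fabp3 was 0.77 and 0.00335, since the diet difference itself makes up the first of each pair. For Cpt2 and Fabp3 they were 0.97 and 0.956.

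Replicate numbers are shared by the diets in the labels, which do not say that they pair the mice. Arrays with the same number did not deviate together (r of -0.26, -0.20 and -0.03). This cannot settle whether the numbers mark a pairing, because the deviations of the normal diet arrays also hold the slide difference. A replicate block left the differences at 1.33, 1.30 and 1.22, with standard errors of 0.26, 0.23 and 0.26, and gave 2163 probes by both criteria, 1840 of them shared with the fit without it. The replicate block left the count of other fatty acid genes at 3.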
